A study of Homo sapiens and Mus musculus with 20 samples.

Results

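The accessible chromatin of 7 genes that encode intestinal lineage transcription factors, CDX1, CDX2, HNF4A, HNF4G, GATA4, GATA6 and ELF3, was followed in SW480 cells. The members were all SW480 regions that touched the body of one of these genes or the 20 kb on either side of it, and they numbered 80 of the 252173 regions obtained when the peaks of all 12 SW480 libraries were merged. HNF4A held 27 of them, CDX1 14, CDX2 11, GATA4 and GATA6 9 each, ELF3 6 and HNF4G 4. The gene window has a sharp limit. The region farthest out but still inside it lay 19234 bp from HNF4A, with a median rank of 22.8, and the nearest one outside lay 20439 bp from GATA6, with a median rank of 84.8.

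SW480 is an established human colon adenocarcinoma line, and it was the single line that gave these 12 libraries. Propionate was given as its sodium salt (NaPr) at 10 mM and butyrate likewise (NaBu) at 1 mM, each for 12 to 16 h, and each compound had its own cells at 0 mM, so the study consisted here of 2 experiments with 3 treated and 3 untreated libraries each. Chromatin was opened to Tn5 transposase (ATAC-seq) in 50000 cells per reaction. The experiments carried different date labels, and the doses differed, so the compounds were set side by side and not tested against each other. The labels call the libraries replicates without stating separate cultures, and the p-values therefore measure the spread between these libraries, which may be technical.

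Each of these factors binds DNA and takes part in setting the identity of gut epithelium. CDX1 and CDX2 are homeodomain proteins, and CDX2 is needed for the intestinal rather than the gastric fate of the endoderm. HNF4A and HNF4G are nuclear receptors that drive enterocyte genes, GATA4 and GATA6 are zinc finger factors, the former restricted to the proximal gut, and ELF3 is an ETS factor of epithelial differentiation. HNF4A is transcribed from an upstream promoter, P2, and a downstream promoter, P1, which give proteins with different amino ends.

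The promoter sequences of CDX2 and HNF4A and those of the 3 elements called with NaPr are given first, 5′ to 3′. Promoter sequences are the 250 bases before the start in RefSeq (GRCh38.p14), for which CDX2 and both HNF4A promoters were used. The other sequences are the 200 bases around the highest summit of the region, on the plus strand of GRCh38. Capitals mark matches to any of 5 strings sought on both strands: CAAAGTCCA for HNF4, TTTATG for CDX, AGATAA for GATA, CCGGAAGT for ETS factors and TGANTCA for AP-1. These strings do not overlap one another in the windows shown.
CDX2 promoter, minus strand, chr13:27969316-27969565: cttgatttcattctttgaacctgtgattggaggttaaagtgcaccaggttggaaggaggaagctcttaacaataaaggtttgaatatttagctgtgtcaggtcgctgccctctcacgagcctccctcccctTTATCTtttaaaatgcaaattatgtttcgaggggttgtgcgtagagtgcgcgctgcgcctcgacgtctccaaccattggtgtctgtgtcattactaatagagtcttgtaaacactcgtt
HNF4A P2 promoter, plus strand, chr20:44355449-44355698: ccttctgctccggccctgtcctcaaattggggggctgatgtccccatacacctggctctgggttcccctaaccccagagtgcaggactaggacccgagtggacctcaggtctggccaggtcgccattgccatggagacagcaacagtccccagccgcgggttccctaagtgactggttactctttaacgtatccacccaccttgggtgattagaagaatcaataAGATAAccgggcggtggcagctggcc
HNF4A P1 promoter, plus strand, chr20:44400989-44401238: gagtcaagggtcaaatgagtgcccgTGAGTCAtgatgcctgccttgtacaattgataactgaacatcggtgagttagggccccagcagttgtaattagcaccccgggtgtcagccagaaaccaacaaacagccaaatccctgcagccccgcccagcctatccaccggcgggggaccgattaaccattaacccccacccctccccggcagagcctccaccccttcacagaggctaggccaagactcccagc
CDX1 upstream element, chr5:150161741-150161940: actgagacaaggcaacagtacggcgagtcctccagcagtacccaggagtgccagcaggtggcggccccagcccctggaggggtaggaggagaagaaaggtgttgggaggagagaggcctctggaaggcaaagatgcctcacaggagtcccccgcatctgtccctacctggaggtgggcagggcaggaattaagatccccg
CDX1 downstream element, chr5:150186354-150186553: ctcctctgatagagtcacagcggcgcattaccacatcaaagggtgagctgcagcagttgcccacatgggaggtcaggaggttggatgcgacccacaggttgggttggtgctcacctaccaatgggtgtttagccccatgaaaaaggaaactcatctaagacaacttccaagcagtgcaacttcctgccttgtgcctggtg
HNF4A intron element, chr20:44358831-44359030: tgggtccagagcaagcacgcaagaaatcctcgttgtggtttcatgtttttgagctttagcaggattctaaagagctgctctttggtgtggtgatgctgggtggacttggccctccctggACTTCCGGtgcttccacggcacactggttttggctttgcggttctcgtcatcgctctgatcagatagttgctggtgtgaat

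The CDX2 and P2 promoters each held a GATA string, which 9.17% of the 35116 RefSeq promoters held in the same 250 bases. The P1 promoter held an AP-1 string, present in 6.57% of promoters. The HNF4A intron element held an ETS string, present in 0.516% of all SW480 regions. Neither CDX1 element held any of the 5 strings. Over the 80 member regions the AP-1 string occurred in 8 (10% against 16.3% of all regions), the CDX string in 6 (7.5% against 8.5%), the GATA string in 5 (6.25% against 7.8%), the HNF4 string in 2 (2.5% against 0.503%) and the ETS string in 1 (1.25% against 0.516%). These matches are letters in a window and not measured binding.

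Accessibility is given as a percentile rank. Within a library, the regions with a peak were ordered by the highest −log10 p of their peaks, 100 is the strongest, and a region without a listed peak is set to 0. A rank compares a region with all others of its library, and in bulk cells it cannot tell a region open in fewer cells from one less open in each cell. Between 96813 and 120072 regions had a peak in a library. The lowest background of a list, which stands for relative depth, was 0.936 to 2.35 tags in the NaPr experiment and 2.11 to 3.03 in the NaBu experiment. By this measure replicate 1 was the shallowest library of both NaPr groups. Every list ended at about 300000 summits, so its weakest −log10 p varied from 3.37 to 9.38 and a region at 0 may hold signal under that limit. Of the 8 epithelial and colonic markers, 6 had a peak at the start in all 12 libraries. KRT20, a differentiation keratin, had one in 3 libraries and LGALS4 in 8. The starts of PTPRC, CD3E, PECAM1 and CDH5, genes of blood and endothelial cells, and of ALB, a hepatocyte gene, had no listed peak in any library. Of the mesenchymal markers, VIM, COL1A1 and COL1A2 had one in all 12 libraries and PDGFRB in 7. APOB, listed here for hepatocytes, and DES, listed for muscle, had one in all 12, and MYOD1, also listed for muscle, in 1.

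At the starts, the 7 genes fell into distinct states. CDX1 had no listed peak within 1 kb of its start in any of the 12 libraries. GATA4 had none at any of its 7 annotated protein-coding starts. HNF4G had none at its canonical start and a strong region at its upstream start (chr8:75406924-75408302). CDX2, HNF4A, GATA6 and ELF3 all had a start region with a peak in each of the 12 libraries. Among all 80 regions, 27 had a peak in all 12 libraries and 19 in only 1.

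The ELF3 start, at chr1:202009420-202011324, had the highest mean rank of the start regions in every group, though not the highest fold enrichment at 0 mM NaBu. Its ranks were 96.0, 94.0 and 93.6 at 0 mM NaPr and 92.8, 94.1 and 93.5 at 10 mM NaPr. They were 96.4, 96.6 and 97.5 at 0 mM NaBu and 97.2, 96.6 and 96.9 at 1 mM NaBu. Treated and untreated ranks overlapped in both experiments, and the changes of -1.06 ± 0.955 (SE, n = 3 per group, limma adjusted p = 0.523) and 0.04 ± 0.542 percentile points (limma adjusted p = 0.958) were not called. The direction at ELF3 in the NaBu experiment turned with the measure. Fold enrichment of the summit over local background was 11.4 ± 0.297 untreated and 12.5 ± 0.442 treated (SD, n = 3), without overlap (exact permutation p = 0.1, two-sided, the smallest that 3 against 3 allow), while summit tags scaled by background were lower by -0.28 on the log2 scale (limma adjusted p = 0.00493).

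**Figure D1:**
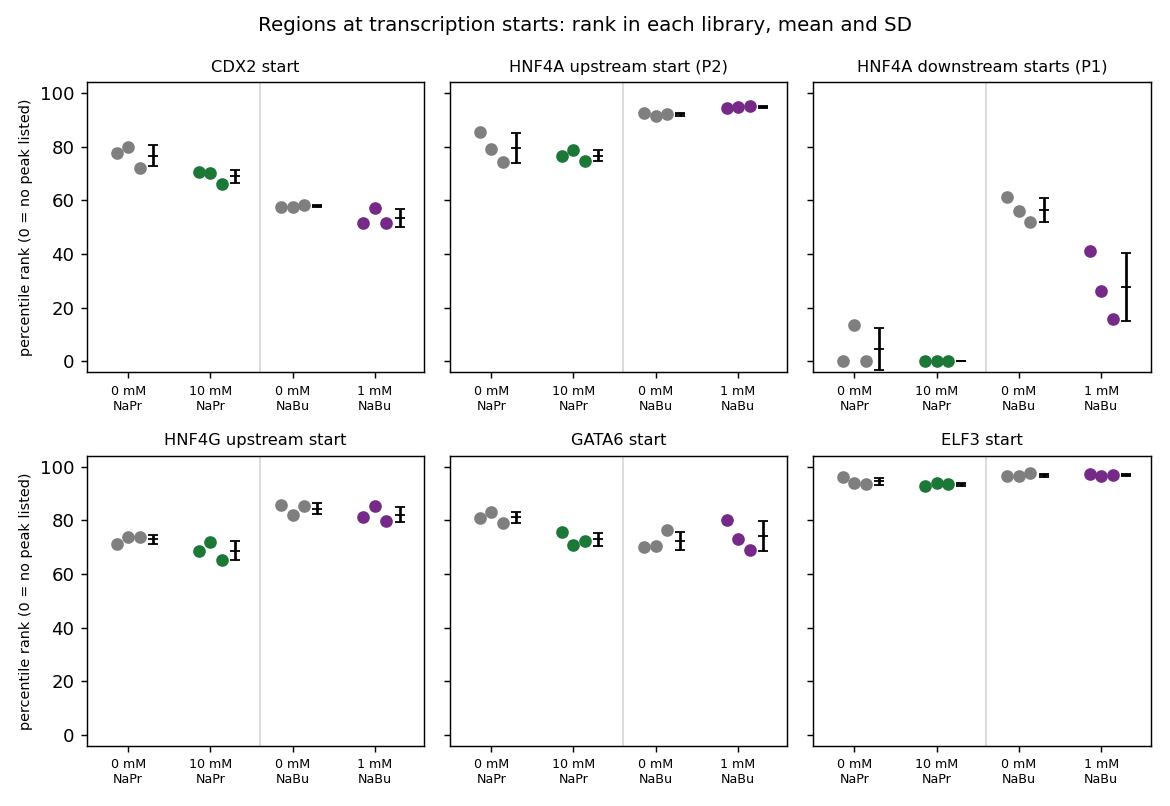
Percentile rank (y axis, 0 to 100, 0 = no peak listed) of the regions at annotated starts in each of the 12 libraries, by group (x axis); dots are libraries, and the bar gives the mean and SD of 3. ELF3 stays between 92.8 and 97.5, P2 of HNF4A rises to 94.5 to 95.4 at 1 mM NaBu, and P1 falls to 15.8 to 41.1.

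In the NaPr experiment, 3 member regions were called by limma at an adjusted p under 0.05, 1 higher and 2 lower, of 53 tested. A region was tested when at least 2 of the 6 libraries had a peak in it, and 27 members were below this limit. Over all regions tested, 3.1% were called higher and 2.22% lower, against 1.89% and 3.77% of the members, so the members' shares lay near the background. The median change was -2.66 percentile points over the tested members and 0.526 over all tested regions. With all lists of the experiment taken to the same length, an alternative chosen after seeing the data, 0 members were higher and 5 lower, against 2.56% and 2.32% of all regions tested, and the higher share of all calls went from 58.3% to 52.5%. Besides the 2 lower calls already made, these 5 were the GATA6 start, the GATA6 coding exon and a region 9022 bp before the CDX2 start. The last of these overlaps the gene URAD. The number called was 0 when NaPr-treated replicate 2, NaPr-treated replicate 3 or untreated replicate 3 was left out, and 1 without untreated replicate 2.

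In the NaBu experiment, 17 member regions were called, 9 higher and 8 lower, of 50 tested, and 30 were not tested. Over all regions tested, 24% were called higher and 13.1% lower, against 18% and 16% of the members. The median change was 1.24 percentile points over the tested members and 2.92 over all tested regions. The treated lists of this experiment held more intervals than the untreated ones (126008 to 128955 against 108442 to 120971) and the percentile of a region of given order is by construction higher in a longer list. With equal list lengths, 3 members were higher and 8 lower, against 14.8% and 14.1% of all regions tested, and the higher share of all calls went from 64.7% to 51.3%. The 3 higher and the 8 lower calls were all among those of the full lists. The 3 that stayed higher were the CDX1 upstream element, the HNF4A P2 promoter and an HNF4A coding exon. Among the 38 tested members for which both NaBu groups had 2 or 3 libraries with a peak, 8 were called higher and 6 lower, against 24.8% and 13.1% of all such regions. The other 3 calls, 1 higher and 2 lower, were at regions that met the peak minimum through the group in which they were high, with missing peaks set to 0, so their direction was fixed by the filter. These 2 lower calls, in a CDX2 exon and a GATA6 exon, were also among the 8 lower at equal list lengths.

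**Figure D2:**
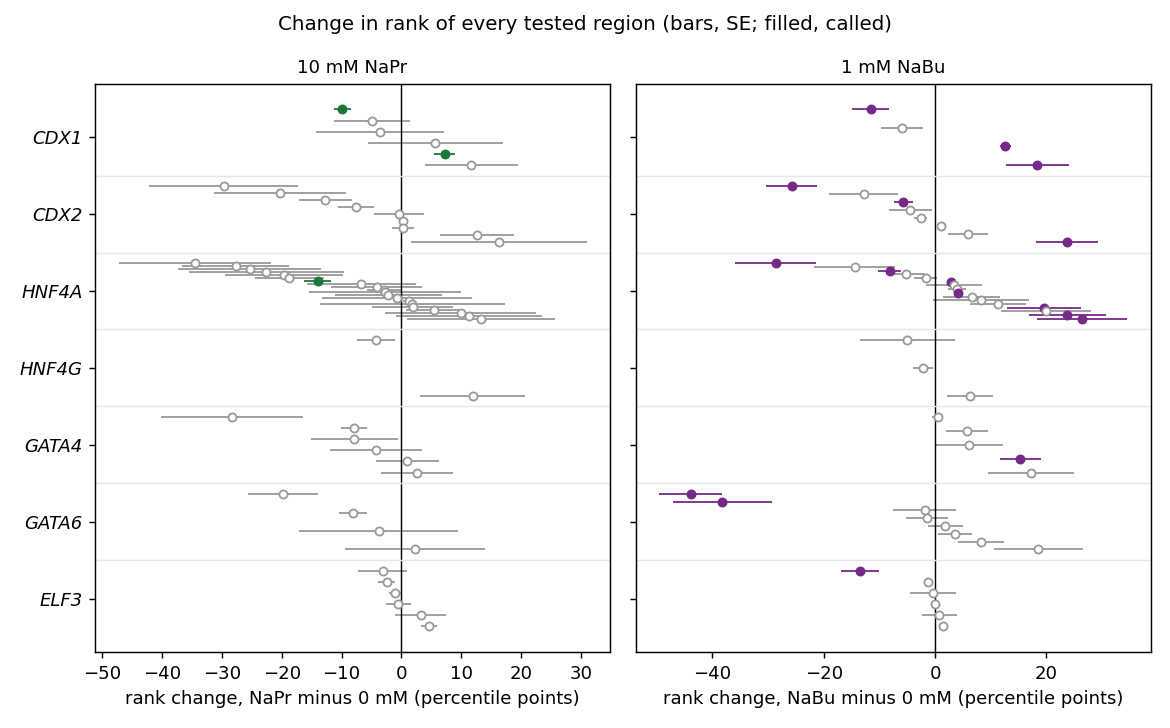
Change of mean percentile rank, treated minus untreated (x axis, percentile points, bars are SE), of each tested member region by gene (y axis), with 10 mM NaPr on the left and 1 mM NaBu on the right; filled points were called by limma at an adjusted p under 0.05. Among the members tested, 3 points are filled for NaPr and 17 for NaBu. Of the 17, 1 higher and 2 lower are at regions that met the peak minimum through the group in which they were high.

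CDX1 had no peak at its start, and its regions called in each experiment lay upstream and beyond the gene. The upstream element at chr5:150161207-150162468, with its summit 4937 bp before the start, had ranks of 82.7, 90.0 and 90.3 at 0 mM NaPr and 95.6, 94.9 and 94.1 at 10 mM NaPr. The groups did not overlap, and the rise of 7.21 ± 1.78 percentile points was called (SE, limma adjusted p = 0.0427). This call was lost under 6 of the 12 alternatives, which were equal list lengths (limma adjusted p = 0.196), ranking by fold enrichment, the top 50000 intervals, the q filter, a peak in at least 1 library and no trend. Of the 6 fits that leave out a library it was kept only without untreated replicate 1 (limma adjusted p from 0.0456 to 0.141).

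The same CDX1 element had ranks of 83.0, 83.1 and 80.9 at 0 mM NaBu and 94.2, 95.7 and 94.9 at 1 mM NaBu. All 3 treated libraries lay more than 10 points above all untreated ones. The rise of 12.6 ± 0.968 percentile points (limma adjusted p = 0.000249) was kept at equal list lengths (12.6 ± 0.955, limma adjusted p = 0.00214), under each of the 12 alternatives and in all 6 fits without a library. Summit tags rose with the rank, from 192, 126 and 135 to 244, 278 and 267.

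The CDX1 downstream element moved the other way. It lay at chr5:150185338-150187189, with its summit 19676 bp after the start and outside the gene. Its ranks were 93.1, 90.8 and 94.6 at 0 mM NaPr and 84.7, 83.1 and 81.0 at 10 mM NaPr, a fall of -9.86 ± 1.47 percentile points (limma adjusted p = 0.00691). They were 65.5, 69.3 and 66.3 at 0 mM NaBu and 52.3, 57.0 and 57.1 at 1 mM NaBu, a fall of -11.6 ± 3.28 (limma adjusted p = 0.0246). Treated and untreated libraries did not overlap in either experiment, and both calls were kept at equal list lengths (limma adjusted p = 0.0324 and 0.00538). The calls held in 3 of 6 and 4 of 6 fits without a library. The NaPr call was lost without untreated replicate 3, NaPr-treated replicate 2 or NaPr-treated replicate 3, and the NaBu call without untreated replicate 2 or 3, with limma adjusted p up to 0.0731 and 0.0759. Ranking by fold enrichment lost both calls, and a fit without trend lost the NaPr call. These elements were the only 2 members called in both experiments.

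A CDX1 intron region (chr5:150175424-150176150) had ranks of 34.0, 38.8 and 44.9 at 0 mM NaBu and 55.1, 65.8 and 51.8 at 1 mM NaBu. Its rise of 18.4 ± 5.69 percentile points (limma adjusted p = 0.0347) was not called at equal list lengths (limma adjusted p = 0.0917) or when ranked by fold enrichment, and it was lost without replicate 1 or 2 of either NaBu group. Its NaPr and control ranks ran from 46.4 to 71.8 and overlapped between groups. The 4 farthest upstream CDX1 regions lay in PDGFRB, a neighbouring receptor gene, and none of them was called. One of these, at chr5:150155378-150155995, had weak peaks in all 3 libraries at 0 mM NaBu (ranks 4.57, 10.2 and 3.07) and in none at 1 mM NaBu. It met the peak minimum in that experiment through the untreated libraries alone, so no test is given.

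**Figure D3:**
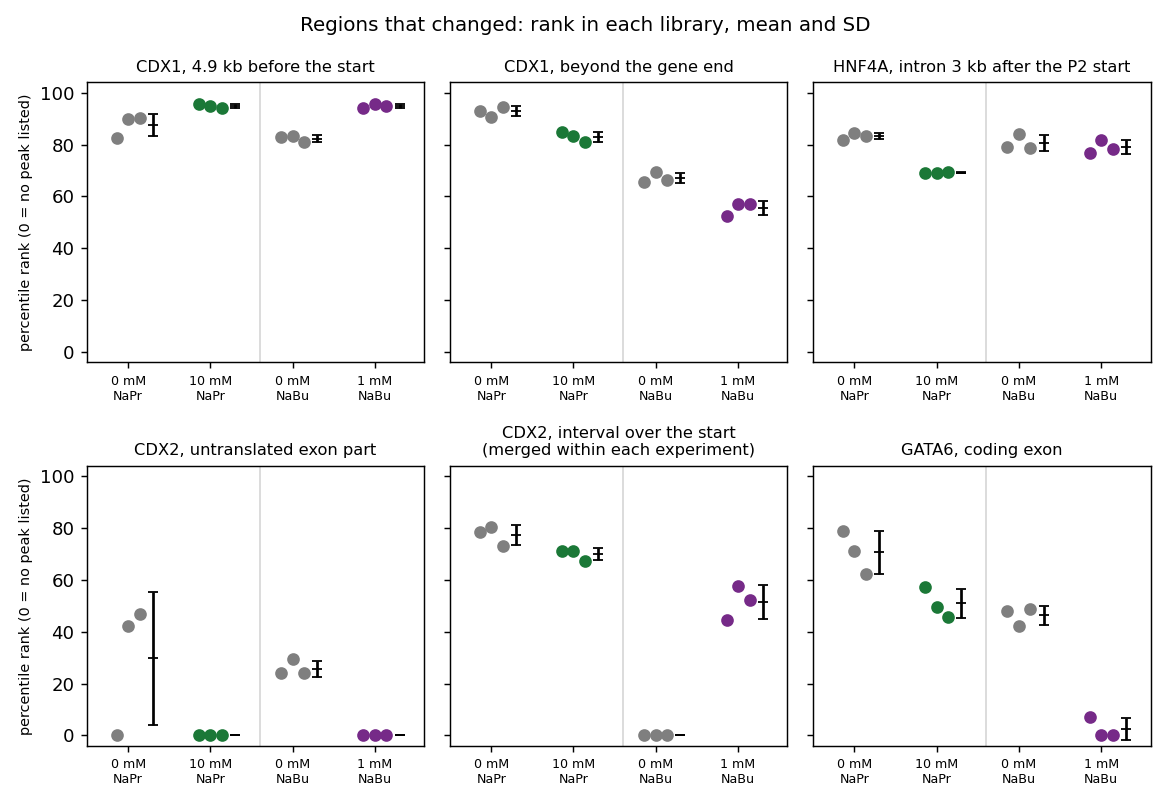
Percentile rank (y axis, 0 = no peak listed) in each of the 12 libraries (dots, by group on the x axis) with mean and SD of 3, for CDX1, CDX2, HNF4A and GATA6 regions. The CDX1 upstream element reaches 94.1 to 95.7 in all 6 treated libraries, and the GATA6 exon falls to 0 to 7.19 at 1 mM NaBu.

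CDX2 kept its start region in all 12 libraries (chr13:27967833-27969485). Its ranks were 77.7, 79.8 and 72.2 at 0 mM NaPr, 70.5, 70.1 and 66.2 at 10 mM NaPr, 57.6, 57.6 and 58.3 at 0 mM NaBu, and 51.5, 57.1 and 51.5 at 1 mM NaBu. The changes of -7.63 ± 3.05 (limma adjusted p = 0.165) and -4.48 ± 3.85 percentile points (limma adjusted p = 0.378) were not called. Treated ranks lay below untreated ranks in both experiments, but the direction turned when windows around summits replaced the merged regions (0.196 with NaPr and 1.45 with NaBu). Tags scaled by background were lower with NaBu, by -0.44 on the log2 scale (limma adjusted p = 0.00221), and not called with NaPr (-0.19, limma adjusted p = 0.655). The summit of the whole region lay 509 bp after the start.

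This region joins intervals that stay apart in the NaBu libraries. When peaks were merged within the NaBu experiment alone, an interval over the start itself, from position -170 to 207 relative to it (chr13:27969108-27969485), had no listed peak in the 3 untreated libraries and ranks of 44.6, 57.8 and 52.2 in the treated ones. The treated libraries had summit tags of 99, 121 and 112 and fold enrichments of 3.12, 3.89 and 3.49 there. No test is given for this interval, which met the peak minimum through the treated libraries alone. It takes in the part of the printed CDX2 promoter sequence that lies nearest the start. The interval next to it, 318 to 583 bp after the start, went from 58.3, 58.3 and 59.0 untreated to 52.2, 15.1 and 33.6 treated, and this change of -24.9 ± 8.76 was not called (limma adjusted p = 0.0552). With NaPr and its controls the start was within one joined interval in both groups. These intervals were singled out after their values were seen, and only the merging was varied for them.

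Inside CDX2, a region in an untranslated part of an exon (chr13:27962364-27962671) had ranks of 24.0, 29.4 and 24.0 at 0 mM NaBu and no listed peak in any of the 3 libraries at 1 mM NaBu. It met the peak minimum through the untreated libraries alone, so no test is given. At 0 mM NaPr its ranks were 0, 42.1 and 47.0 and at 10 mM NaPr all were 0, so that the untreated libraries disagreed. The peak minimum was again met through untreated libraries alone, and no test is given. At the end of the gene, the region chr13:27960332-27961260 fell from 84.2, 83.7 and 80.8 to 79.3, 77.5 and 74.7 with NaBu (-5.72 ± 1.71, limma adjusted p = 0.0305). That call was lost without untreated replicate 1 or 2 or NaBu-treated replicate 2 or 3, and when ranked by fold enrichment or fitted without trend, and the region was chosen for naming after its values were seen.

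Beyond CDX2, the region chr13:27943973-27944432 had no listed peak at 0 mM NaBu and ranks of 29.0, 13.6 and 28.4 at 1 mM NaBu. It met the peak minimum through the treated libraries alone, so no test is given. The strongest CDX2 region, over the long noncoding gene LINC00543 (chr13:27953021-27954881), had ranks of 98.4 to 99.6 in the 6 NaPr libraries and 92.5 to 97.3 in the 6 NaBu libraries, and was called in neither. A CDX2 intron region (chr13:27965545-27967389) was also high throughout, from 85.8 to 96.1.

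HNF4A changed at both of its promoters in the NaBu experiment, in opposite directions by rank. P2 (chr20:44354755-44356481), which overlaps the antisense gene R3HDML-AS1, had ranks of 92.5, 91.5 and 92.0 at 0 mM NaBu and 94.5, 94.9 and 95.4 at 1 mM NaBu. The rise was small, 2.88 ± 0.635 percentile points, with no overlap (limma adjusted p = 0.00882), and it was kept at equal list lengths (limma adjusted p = 0.0253) and in all 6 fits without a library. Fold enrichment was 8.9 ± 0.49 untreated and 10.35 ± 0.248 treated (SD, n = 3, exact permutation p = 0.1, two-sided), but the call was lost when regions were ranked by fold enrichment (limma adjusted p = 0.0556) and when no trend was fitted (limma adjusted p = 0.224). Summit tags scaled by background did not show this rise, at -0.04 on the log2 scale (limma adjusted p = 0.695). Across the NaPr experiment P2 had ranks of 85.4, 79.1 and 74.2 untreated and 76.7, 78.8 and 74.7 treated, which overlapped (-2.87 ± 2.85, limma adjusted p = 0.565).

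P1 (chr20:44400527-44401886) had ranks of 61.1, 55.9 and 52.1 at 0 mM NaBu and 41.1, 26.4 and 15.8 at 1 mM NaBu. All treated libraries lay below all untreated ones, with a fall of -28.6 ± 7.29 percentile points (limma adjusted p = 0.0161) that was kept at equal list lengths (limma adjusted p = 0.0292). Fold enrichment was 7.59 ± 1.09 untreated and 4.85 ± 0.771 treated (SD, n = 3, exact permutation p = 0.1, two-sided), and summit tags went from 92, 53 and 58 to 42, 34 and 31. The call was lost without untreated replicate 1 or NaBu-treated replicate 2 (limma adjusted p up to 0.0646), and in the top 50000 intervals. P1 in the NaPr experiment was nearly closed in the lists, with a peak in 1 of 6 libraries (rank 13.5 in untreated replicate 2), and was not tested.

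The HNF4A region called with NaPr was the intron element 3232 bp after the P2 start (chr20:44358678-44359273). Its ranks were 81.9, 84.3 and 83.3 at 0 mM NaPr and 68.9, 69.0 and 69.6 at 10 mM NaPr, a fall of -14.0 ± 2.22 percentile points (limma adjusted p = 0.00887) that was kept at equal list lengths (limma adjusted p = 0.0354). The spread within each group was far below the gap between groups, yet the call was kept in 2 of 6 fits without a library (limma adjusted p up to 0.0733), lost without untreated replicate 2 or 3 or NaPr-treated replicate 2 or 3. It was also lost when ranked by fold enrichment (limma adjusted p = 0.118) and with tags scaled by background (limma adjusted p = 0.0937). With NaBu its ranks overlapped, 79.2, 84.2 and 78.6 against 76.6, 81.9 and 78.4 (limma adjusted p = 0.534). The outermost upstream region (chr20:44335928-44336465) lay within 1 kb of an annotated start of the gene R3HDML. This region had ranks of 25.5, 37.5 and 20.1 at 0 mM NaPr and no listed peak at 10 mM NaPr. It met the peak minimum in that experiment through the untreated libraries alone, so no test is given. Whether the compounds differ at these regions was not tested.

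Of the 16 HNF4A regions tested in the NaBu experiment, 5 were called higher and 2 lower (31.2% and 12.5%, against 24% and 13.1% of all regions tested), so these shares lay near the background. A region over a coding exon and MIR3646 (chr20:44406635-44408125), singled out after its values were seen, rose from 92.2, 92.8 and 91.5 to 95.6, 96.3 and 97.0 (4.1 ± 0.672, limma adjusted p = 0.00253), kept at equal list lengths (limma adjusted p = 0.00888) and lost when ranked by fold enrichment or fitted without trend. The largest called rise was 26.4 ± 8.1 percentile points at chr20:44442454-44443316, beyond the gene in LINC01620, from 25.6, 16.8 and 0 to 47.1, 31.2 and 43.1 (limma adjusted p = 0.0335), and it was lost at equal list lengths (limma adjusted p = 0.151) and without untreated replicate 2 or 3 or NaBu-treated replicate 1 or 3. The same loss at equal list lengths was found at chr20:44448937-44449508, which rose by 23.8 ± 6.95, and at the intron region chr20:44370265-44371216, which rose by 19.5 ± 6.67. These calls were lost in 4 and 5 of 6 fits without a library, and the first was kept only without untreated replicate 2 or NaBu-treated replicate 3, the second only without untreated replicate 2. Ranking by fold enrichment and counting regions with a peak in at least 1 library lost all 3 of these higher calls. The other lower call lay beyond the gene end at chr20:44433376-44434722, from 79.9, 85.7 and 80.7 to 71.5, 76.1 and 74.3 (-8.14 ± 2.1, limma adjusted p = 0.0169), lost without untreated replicate 2 or NaBu-treated replicate 1 or 3 and without trend. Another intron region (chr20:44398355-44398788) had weak peaks in all 3 NaBu-treated libraries (ranks 2.8, 19.7 and 11.5) and in no other library. It met the peak minimum through the treated libraries alone, so no test is given.

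**Figure D4:**
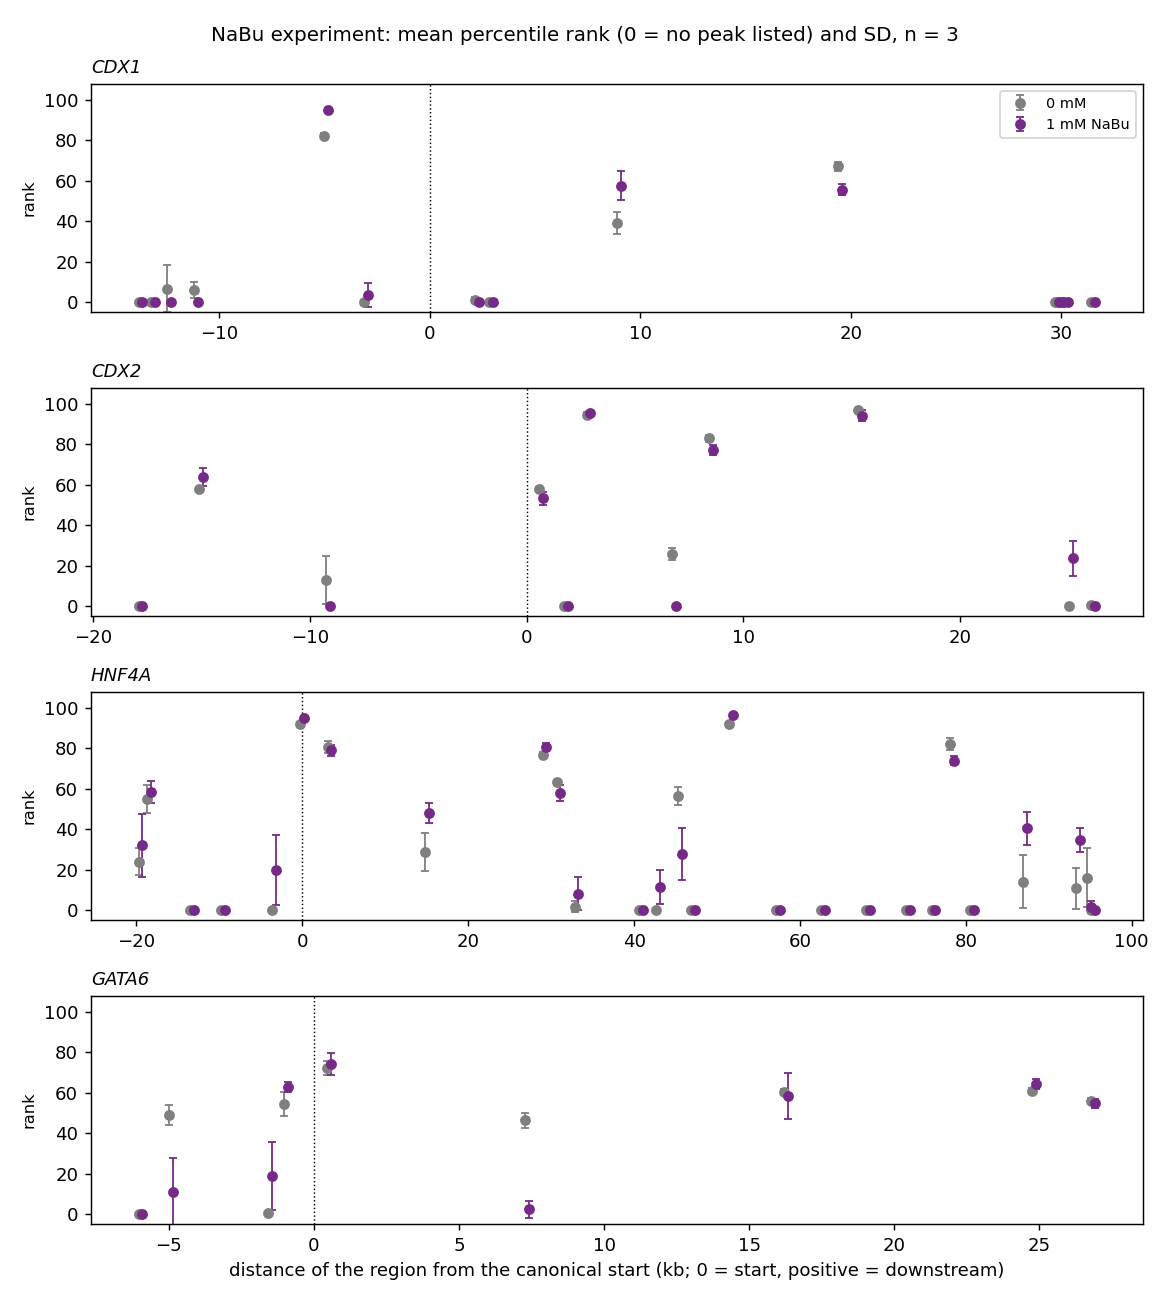
Mean percentile rank (y axis, 0 = no peak listed) and SD of 3 libraries for each member region of CDX1, CDX2, HNF4A and GATA6 in the NaBu experiment, by distance from the canonical start (x axis, kb). Grey is 0 mM and purple 1 mM NaBu. The P1 region of HNF4A, 45.7 kb from the P2 start, falls from a mean of 56.4 to 27.7, and the GATA6 exon, 7.5 kb from the start, from 46.3 to 2.4.

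HNF4G, the paralogue of HNF4A, had 3 regions tested with NaBu and 2 with NaPr, and none was called. Its upstream start region had ranks of 71.1, 74.0 and 73.8 at 0 mM NaPr, 68.7, 72.2 and 65.1 at 10 mM NaPr, 85.7, 81.9 and 85.5 at 0 mM NaBu, and 81.5, 85.3 and 79.8 at 1 mM NaBu. Groups overlapped within each experiment, with changes of -4.29 ± 3.17 (limma adjusted p = 0.429) and -2.18 ± 1.76 percentile points (limma adjusted p = 0.349).

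GATA4, without a start peak, had an intron region at chr8:11735962-11736881 with ranks of 64.3, 52.6 and 57.8 at 0 mM NaBu and 70.5, 73.7 and 76.5 at 1 mM NaBu. The rise of 15.3 ± 3.62 percentile points (limma adjusted p = 0.0117) was not called at equal list lengths (13.5 ± 4.17, limma adjusted p = 0.0648) or when ranked by fold enrichment, and was lost without NaBu-treated replicate 3. It was 53.3, 60.6 and 56.4 at 0 mM NaPr and 67.6, 51.5 and 59.0 at 10 mM NaPr, which overlapped. No other GATA4 region was called in either experiment. The strongest, at chr8:11769167-11770802, overlaps the gene NEIL2 and lies within 1 kb of an annotated NEIL2 start. Its ranks were 86.4, 89.2 and 83.4 at 0 mM NaPr and 79.1, 81.2 and 75.0 at 10 mM NaPr. They were 85.6 to 87.7 in the 6 NaBu libraries. The NaPr groups did not overlap, and the change of -7.92 ± 2.14 missed the threshold (limma adjusted p = 0.0563). A lower GATA4 call appeared in the NaPr experiment with the replicate block, in the top 50000 intervals and with tags scaled by median.

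GATA6 kept its start region, and of its 8 regions tested with NaBu, 2 were called lower and 0 higher. These were 25% and 0%, against 13.1% and 24% of all regions tested, and the coding exon among them is given below without a test. The region just before the start (chr18:22168375-22168917) lay higher at 1 mM NaBu without overlap and was not called (8.21 ± 4.14, limma adjusted p = 0.15). The next one upstream (chr18:22167999-22168157) had ranks of 1.16, 0 and 0 at 0 mM NaBu and 24.6, 0 and 32.3 at 1 mM NaBu, which overlapped. The start region (chr18:22169026-22171208), which also lies over GATA6-AS1, had ranks of 70.2, 70.4 and 76.4 at 0 mM NaBu and 80.1, 73.2 and 69.1 at 1 mM NaBu (1.81 ± 3.17, limma adjusted p = 0.671). At 0 mM NaPr it had ranks of 81.0, 83.2 and 79.2, and at 10 mM NaPr 75.8, 71.0 and 72.4. The latter groups did not overlap, and the change of -8.07 ± 2.35 missed the threshold (limma adjusted p = 0.0698) but passed it at equal list lengths (-9.63 ± 1.81, limma adjusted p = 0.0485). When peaks were merged within the NaBu experiment, a separate interval 1138 to 1369 bp after the start (chr18:22170727-22170958) fell from 31.0, 32.7 and 29.2 to 7.52, 16.7 and 0 (-22.9 ± 6.07, limma adjusted p = 0.0192). That interval was also singled out after its values were seen.

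The largest fall in mean rank at any member with NaBu was in a GATA6 coding exon (chr18:22176502-22177378), which overlaps an annotated gene without a symbol. Its ranks were 48.0, 42.1 and 48.9 at 0 mM NaBu and 7.19, 0 and 0 at 1 mM NaBu, a difference of -43.9 percentile points between the means. Only 1 of the 3 treated libraries had a listed peak, so the region met the peak minimum through the untreated libraries and no test is given. At 0 mM NaPr the ranks were 78.7, 71.2 and 62.1, and at 10 mM NaPr 57.2, 49.7 and 45.9, without overlap. That change of -19.8 ± 5.78 was not called (limma adjusted p = 0.0705), and was called at equal list lengths (-23.5 ± 4.06, limma adjusted p = 0.0425).

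A GATA6 upstream region, 4987 bp before the start (chr18:22164524-22164806) and named after its values were seen, had ranks of 45.4, 47.2 and 54.4 at 0 mM NaBu and 0, 1.66 and 30.6 at 1 mM NaBu. The fall of -38.2 ± 8.88 percentile points was called (limma adjusted p = 0.011) and kept at equal list lengths, and it was lost without NaBu-treated replicate 2 (limma adjusted p = 0.0522). No NaPr library had a peak there. A pair of GATA6 intron regions (chr18:22194085-22194698 and chr18:22195978-22196895) had ranks of 52.4 to 66.9 in all 6 NaBu libraries, and in the NaPr libraries a single peak at the first of them (rank 34.2). Neither was called within the NaBu experiment.

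ELF3 had a peak in all 12 libraries in each of its 6 regions, and 1 of them was called. The region 12548 bp after the start and beyond the gene (chr1:202022879-202023559) had ranks of 73.6, 78.2 and 75.9 at 0 mM NaBu and 67.2, 64.6 and 55.5 at 1 mM NaBu. The groups did not overlap, and the fall of -13.5 ± 3.4 percentile points (limma adjusted p = 0.0156) was kept at equal list lengths but lost when ranked by fold enrichment and without untreated replicate 2 or 3 (limma adjusted p up to 0.0641). In the NaPr experiment its ranks of 88.5, 87.6 and 84.4 untreated and 91.3, 84.3 and 83.5 treated overlapped (limma adjusted p = 0.912).

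Fold enrichment at the start regions was tested on its own in 11 comparisons. Its exact permutation p was 0.1, the smallest possible with 3 against 3, in 5 of them, that is, the groups did not overlap in 2 of 5 comparisons with NaPr and in 3 of 6 with NaBu. Over all regions with a peak in all 6 libraries of the experiment, fold enrichment did not overlap in 23.9% with NaPr and in 44% with NaBu. The 5 were CDX2 with NaPr, from 4.65 ± 0.0869 to 4.33 ± 0.0929 (SD, n = 3), GATA6 with NaPr, from 7.92 ± 0.569 to 6.48 ± 0.7, and P2, P1 and ELF3 with NaBu, given above. The remaining 6 had a p of 0.2 to 0.9, and the design cannot reach 0.05.

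Other transcription factor genes of gut and endoderm were counted in the same way over 12 genes, FOXA1, FOXA2, FOXA3, GATA5, ISX, EHF, ONECUT2, SOX9, ATOH1, SPDEF, HES1 and PROX1, with 150 regions. With NaPr, 3 regions were called higher and 5 lower of 80 tested (3.75% and 6.25%, against 3.1% and 2.22% of all regions), and 2 and 2 at equal list lengths (2.56% and 2.32% of all regions). With NaBu, 15 were called higher and 25 lower of 103 tested (14.6% and 24.3%, against 24% and 13.1% of all regions), and 7 and 26 at equal list lengths (14.8% and 14.1% of all regions). The counts over these genes were not split by peaks in both groups, so the filter may have fixed the direction of some calls. EHF, an ETS relative of ELF3, had 4 higher and 8 lower of 24 tested with NaBu. HES1, a Notch target, had 1 higher and 5 lower of 13, and PROX1 had 1 higher and 6 lower of 13. Of the remaining genes, FOXA3 had 1 higher and 3 lower of 10 and FOXA2 3 higher and 1 lower of 7. GATA5 had 1 of each, FOXA1 1 lower, ISX, SOX9, ATOH1 and SPDEF 1 higher each, and ONECUT2 none.

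Across the 12 libraries, the protein-coding start whose ranks were most like those of the CDX2 start was P4HTM (Pearson r = 0.985), for the HNF4A P2 start it was PDE7A (0.990), for ELF3 CSE1L (0.980) and for GATA6 CARHSP1 (0.901). They are the highest of 16128 starts with a peak, over 12 points that share libraries, depth and the step between the experiments.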

How the data were processed

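Open chromatin was measured by ATAC-seq in 12 SW480 libraries (GRCh38). Per the labels, the submitters' processing notes name bcl2fastq 2.17.1, cutadapt 1.9.1, Bowtie2 2.3.1 and MACS2 2.1.0. The authors deposited a peak list per library, without pooling, in which every summit has a fold enrichment (a ratio to the local background), a −log10 p and a −log10 q; MACS2 adds a pseudocount of 1 to the fold. Between 0.179% and 0.326% of numbered lines were missing from the lists as used here. The 8 libraries of the mouse line CT26 were not used.

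Peaks overlapping by at least 1 bp were merged over the 12 lists, and each region took the highest −log10 p of a library. Regions found in 2 or more of an experiment's 6 libraries had their percentile ranks tested with limma 3.58.1 (R 4.3.3; lmFit, eBayes with trend, two-sided), with Benjamini-Hochberg adjustment over all tested regions and a threshold of 0.05. A call therefore compares ranks and cannot show a change shared by all peaks of a library. The script was tested on simulated data with shifts larger than any member change called here, so that test does not cover smaller changes. Fold and −log10 p of a summit were solved as a Poisson test for its whole number of tags, which succeeded for 100% of summits. The lowest background of a list served as relative depth. Fold enrichment at starts was compared by exact permutation. Genes and starts came from GENCODE 44. Equal list length means that ranks were counted from the top over the number of regions in the shortest of all 12 lists, 96813. The same length was used in both experiments. Deviations of same-numbered libraries correlated weakly (0.0049 to 0.0313, against -0.0289 to 0.0123 for other numbers), and the main fit had no pairing.

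Regions were named by rule: those at a canonical start or within 1 kb of it (all protein-coding starts for HNF4A), the largest called rise and fall per gene and experiment, and regions with a peak in all libraries of one group and none of the other. The other regions named were picked with their values known. The genes, lists and tests were chosen with earlier results of these data known, and some genes of the marker and transcription factor lists are not reported here. Alternatives were ranking by fold, the top 50000 intervals, −log10 q of at least 2, merging within the experiment, windows of 250 bp on each side of summits, other peak minimums, no trend, a replicate block, tags scaled by background or median, a 5 kb gene window and leaving out each library.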

Additional observations from a re-analysis of the deposited data

How the results depend on the processing

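With NaPr, 3 member regions of 53 tested were called, 1 higher and 2 lower (1.89% and 3.77%, against 3.1% and 2.22% of all regions tested). The count was 0 when ranked by fold enrichment (0 higher, 0 lower), 6 in the top 50000 intervals (0 higher, 6 lower), 1 without trend (0 higher, 1 lower), 11 with tags scaled by median (2 higher, 9 lower), 3 with tags scaled by background (2 higher, 1 lower), and 5 at equal list length, chosen after seeing the data (0 higher, 5 lower). At equal list length the shares of all regions were 2.56% and 2.32%. For the other alternatives no share of all regions is given, so their counts cannot be set against a background. Both tag scalings, and the setting with a peak in all libraries, tested only regions with a peak in all 6 libraries. These were 33 members with NaPr and 34 with NaBu. The higher count was 0 with the q filter and with a peak in at least 1 library, and the lower count was 3 with a peak in all libraries. Without 1 library the total ranged from 0 to 3, with 0 to 1 higher and 0 to 2 lower. The replicate block gave 5 calls (1 higher, 4 lower) for NaPr and 16 (8 higher, 8 lower) for NaBu. In the NaPr experiment each treated library correlated best with its own number, at values near 0.

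With NaBu, 17 of 50 tested were called, 9 higher and 8 lower (18% and 16%, against 24% and 13.1% of all regions tested). Of these, 1 higher and 2 lower calls were at regions that met the peak minimum through the group in which they were high. The count was 9 when ranked by fold enrichment (4 higher, 5 lower), 10 in the top 50000 intervals (4 higher, 6 lower), 11 with a peak in all libraries (6 higher, 5 lower), 18 under either tag scaling (5 higher, 13 lower) and 11 at equal list length (3 higher, 8 lower). At equal list length 14.8% and 14.1% of all regions were called. Without 1 library it ranged from 11 to 16, with 6 to 8 higher and 4 to 8 lower, and the lowest total came without untreated replicate 2. The q filter, summit windows, no trend, merging within the experiment, the 5 kb window and a peak in at least 1 library kept the NaBu counts within 1.5 times. With tags scaled by background the NaBu change at HNF4A P2 was near 0 and negative (-0.0397, log2), and that at the ELF3 start was negative (-0.284), as with tags scaled by median (-0.0354 and -0.28). The cause was not tested. Peak lists limit all counts, because signal under a list's own weakest peak is not seen.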
